A study of Macaca mulatta with 12 samples.

Results

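Ethanol reaches the liver in blood and is oxidised there in steps, and 10 genes for the enzymes of these steps were followed in liver biopsies of rhesus macaques. They were CYP2E1, ADH1A, ADH1B, ADH4, ADH5, ADH6, ALDH1A1, ALDH1B1, CAT and ACSS2, chosen by their place in the pathway and matched to the transcript table by gene identifier. All 10 were found, among 23993 genes in all, and all 10 passed the filter on low counts, which left 18373 genes to test. RNA came from 6 males of about 4.6 years with 2 biopsies apiece, 1 from before and 1 from the close of a 90-day ethanol induction. Every animal took daily doses of 0.5, 1 and 1.5 g per kg in it, with 30 days at each dose. In the 12 months of free access that followed, 3 animals drank 1.5 g per kg per day (light drinkers, LD) and 3 drank 4 g (very heavy drinkers, VHD). The 4 groups, LD and VHD at baseline and post-induction, held 3 libraries each from the same animals, and the class names refer to drinking after both biopsies. No group went through the same 90 days without ethanol, so the induction and the passage of time between the biopsies cannot be told apart.

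As background, cytosolic alcohol dehydrogenases (ADH) turn ethanol into acetaldehyde with NAD as the acceptor, while the microsomal cytochrome CYP2E1 does so with NADPH and oxygen and the peroxisomal catalase CAT with hydrogen peroxide. Aldehyde dehydrogenases (ALDH) oxidise acetaldehyde to acetate, and ACSS2 joins acetate to coenzyme A in the cytosol and nucleus. CYP2E1 is known for a rise of its protein under ethanol, in part through slower breakdown of the protein.

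Total counts were 5970057 to 25060758 per library, and 20704 to 23348 genes were detected. The defining hepatocyte markers were abundant in every library, with 11 of 12 names matched, none at 0 and a summed level of 16.8 to 30.3% of all counts. That share was 26.0 to 29.7% in LD baseline, 20.5 to 29.8% in LD post-induction, 16.8 to 30.3% in VHD baseline and 16.8 to 24.9% in VHD post-induction. The 9 lists of markers of other cells, from cholangiocytes to red blood cells, lay between 2.28 and 231 CPM in sum (CPM, counts scaled to a common library size). VHD baseline 3 and VHD post-induction 2 stood apart from the other 10 libraries on the second principal component (-92.7 and -82.3, the others -26.5 to 40.0). In deviations from their group means these libraries of different animals went together (r = 0.326 across genes). Those of VHD animal 2 went against each other (r = -0.354), and those of VHD animal 3 had 0.104. VHD baseline 2 with VHD post-induction 3, also of different animals, had 0.261. Higher values occurred between animals of different classes, as 0.535 for LD post-induction 1 with VHD baseline 1. LD post-induction 2 with VHD baseline 2 had 0.491. The values of 0.326 and 0.261 were thus exceeded between animals of different classes and do not settle the animal numbers. On the first component, with 31.4% of the variance against 20.6% for the second, LD post-induction 2 and 3 (79.3 and 79.0), VHD post-induction 3 (64.9) and VHD baseline 2 (45.2) lay opposite LD post-induction 1 (-67.8) and VHD baseline 1 (-60.1), so the LD post-induction group was divided. The changes given for VHD animals 2 and 3 rest on the animal numbers of the labels.

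In the macaque build Mmul_8.0.1 the 5 ADH genes lie on the minus strand of chromosome 5 within 307.6 kb. In order of position they are ADH5 (97722958 to 97745089), ADH4 (97760522 to 97781915), ADH6 (97843651 to 97860579), ADH1A (97986980 to 98002356) and ADH1B (98016729 to 98030586). CYP2E1 is the member on the plus strand, on chromosome 9 (129845335 to 129856824). ALDH1A1 (89104527 to 89240123) and ALDH1B1 (45627805 to 45634909) are on chromosome 15, CAT on chromosome 14 (31425550 to 31472797) and ACSS2 on chromosome 10 (29205242 to 29255268), all on the minus strand. Positions are as deposited, and whether their starts count from 0 or 1 is not given in the sources used here. ADH1A and ADH1B code for closely related class I subunits and their reads could be divided between them by the counting, so each value of this pair is uncertain by an amount the table does not give. The gene sums of ADH1B were whole numbers, within 0.1, in only 3 of 12 libraries, as were those of CYP2E1 and CAT. The count was 5 for ADH4, 7 for ADH1A, 9 for ADH6 and ALDH1A1, 11 for ADH5 and 12 for ALDH1B1 and ACSS2. Sums that are not whole can hold reads divided with other genes, so this uncertainty is not limited to ADH1A and ADH1B. The levels below are CPM, which are not scaled by transcript length, and are therefore compared between libraries. Ratios and shares of 2 genes serve the same comparison and do not say which gene has more transcripts.

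Together the 10 genes made up 0.989 to 1.46% of each library. Over the 12 libraries, 8 of the 10 varied less than the median gene tested, whose standard deviation (SD) of log2 CPM was 0.59. ALDH1A1 was the steadiest of the 10, at an SD of 0.27, below which 4.19% of all tested genes fell. It ran from 1091 CPM (VHD post-induction 2) to 2055 CPM (LD post-induction 1). ADH5 (0.36, from 214 to 423 CPM) and ADH1B (0.39, from 2140 to 4815 CPM) followed. ACSS2 was the most variable, with an SD of 1.28 that exceeded that of 96.3% of tested genes and a 19.0-fold span from 4.89 to 92.8 CPM. ALDH1B1 was the other one above the median gene (SD 0.67), with a 5.07-fold span from 203 to 1030 CPM.

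**Figure D1:**
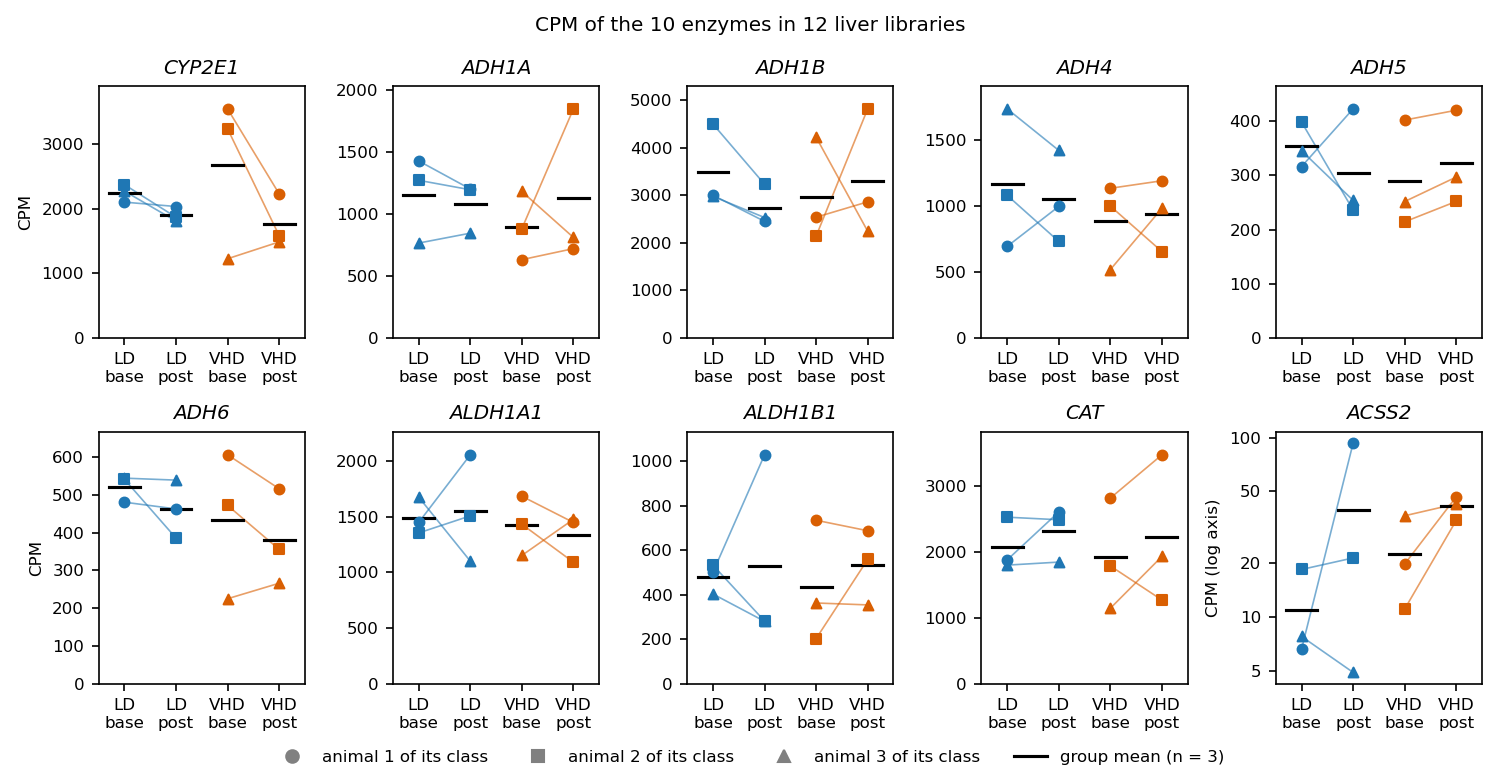
Scaled counts (CPM) of each of the 10 genes by group, with lines joining the 2 libraries of 1 animal, marker shapes for the animal number and black bars for group means (n = 3); the ACSS2 axis is logarithmic. CYP2E1 was lower post-induction in 5 of 6 animals and ACSS2 higher in 5 of 6, and in most panels the animals of a group spread more widely than the group means differ.

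None of the 10 genes passed the test in any of the 6 comparisons (edgeR quasi-likelihood test, Benjamini-Hochberg adjustment over 18373 genes, threshold 0.05). The background was low too. In the response averaged over both classes (the mean response) 0.267% of all genes tested were called, in VHD against LD at baseline 0.00544%, and 0% in each of the other comparisons, namely VHD against LD post-induction, the response within LD, the response within VHD and the difference of these responses. A count of 0 among 10 is near such a background and is no result about these enzymes. At an unadjusted p under 0.05 there were 1454 genes in the mean response, ACSS2 alone among the 10, and DESeq2 also called 0 of the 10 in each comparison. The median log2 change of the 10 in the mean response was -0.02, with 4 positive and 6 negative, beside 0.07 over all genes tested. Groups without overlap were counted too: 0 of the 10 in VHD against LD at baseline (7.21% of all genes), post-induction (4.83%) and in the VHD response (6.69%), and 1 of the 10 in the LD response (11.7%).

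The alcohol dehydrogenases carry most ethanol oxidation at low to moderate intake. ADH1B, the class I subunit beta, stood at 3000, 4496 and 2976 CPM in LD baseline 1, 2 and 3 and at 2451, 3231 and 2531 CPM in LD post-induction. In VHD it stood at 2538, 2140 and 4220 CPM at baseline and at 2861, 4815 and 2243 CPM post-induction. The 3 LD animals were all lower afterwards, VHD animals 1 and 2 were higher and VHD animal 3 was lower, and the groups overlapped. The mean response was 0.935-fold with a 95% interval of 0.619 to 1.41 (adjusted p = 0.975). On the log2 scale, with SE, ADH1B had a response of -0.35 ± 0.39 in LD and 0.16 ± 0.39 in VHD, and the classes differed by -0.24 ± 0.39 at baseline and 0.27 ± 0.39 post-induction.

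ADH1A, the class I subunit alpha, had 1425, 1269 and 764 CPM in LD baseline and 1199, 1193 and 843 CPM in LD post-induction. VHD values were 630, 880 and 1179 CPM at baseline and 719, 1844 and 809 CPM post-induction. Its highest value was in VHD post-induction 2, the library with the highest ADH1B as well. The mean response was 1.08-fold (0.692 to 1.70, adjusted p = 0.972), with 3 animals higher and 3 lower. Its log2 responses (with SE) were -0.10 ± 0.42 for LD and 0.33 ± 0.42 for VHD, and VHD minus LD came to -0.36 ± 0.42 at baseline and 0.06 ± 0.42 post-induction. Since reads may pass between the pair, their sum was taken: it was 4644 ± 1030 CPM in LD baseline, 3816 ± 544 CPM in LD post-induction, 3862 ± 1332 CPM in VHD baseline and 4430 ± 1948 CPM in VHD post-induction (SD, n = 3 each). The differences between these means are smaller than the larger SD of each pair of groups. ADH1A made up 19.9 to 32.8% of that sum.

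ADH4, the class II enzyme that acts at higher ethanol concentrations and also oxidises retinol, had 694, 1081 and 1737 CPM in LD baseline and 998, 732 and 1422 CPM in LD post-induction. The VHD libraries had 1135, 1000 and 518 CPM at baseline and 1192, 655 and 983 CPM post-induction. The mean response was 0.978-fold (0.617 to 1.55, adjusted p = 0.993), again with 3 animals higher and 3 lower. By class, the log2 response of ADH4 was -0.16 ± 0.44 (LD) and 0.093 ± 0.44 (VHD, both with SE), and its class difference -0.41 ± 0.44 at baseline and -0.16 ± 0.44 post-induction. In VHD baseline 3 and VHD post-induction 2, the libraries that stood apart, ADH4 was lowest of all 12 (518 and 655 CPM) while ADH1B was among the 3 highest. The ratio of ADH1B to ADH4 was 8.14 and 7.36 in these libraries and 1.71 to 4.42 in the other 10.

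ADH5, the class III enzyme that mainly handles glutathione-bound formaldehyde, had 316, 399 and 346 CPM in LD baseline and 423, 236 and 254 CPM in LD post-induction. In VHD it had 402, 214 and 252 CPM at baseline and 420, 252 and 297 CPM post-induction. All 3 VHD animals were higher afterwards, by 0.0635 to 0.238 on the log2 scale, and 2 of 3 LD animals were lower. The difference of the responses was 0.37 ± 0.51 (log2, SE, adjusted p = 0.99995) and the mean response 0.980-fold (0.672 to 1.43, adjusted p = 0.992). On the log2 scale, with SE, ADH5 had a response of -0.22 ± 0.36 in LD and 0.16 ± 0.36 in VHD, and the classes differed by -0.29 ± 0.36 at baseline and 0.086 ± 0.36 post-induction.

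ADH6, a class V enzyme whose substrates are less well known, had 481, 541 and 544 CPM in LD baseline and 463, 386 and 539 CPM in LD post-induction. VHD values were 606, 472 and 225 CPM at baseline and 516, 356 and 266 CPM post-induction. It was lower afterwards in 5 of 6 animals, with VHD animal 3 the exception, and the mean response was 0.879-fold (0.586 to 1.32, adjusted p = 0.930). Its log2 responses (with SE) were -0.17 ± 0.38 for LD and -0.20 ± 0.38 for VHD, and VHD minus LD came to -0.27 ± 0.38 at baseline and -0.29 ± 0.38 post-induction. The lowest values were both of VHD animal 3.

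CYP2E1, the ethanol-inducible cytochrome, had 2106, 2377 and 2277 CPM in LD baseline and 2038, 1872 and 1812 CPM in LD post-induction. The LD groups did not overlap, which makes CYP2E1 the only 1 of the 10 with separate groups in any of the 4 comparisons of 2 groups. Among all genes tested 6.17% were lower without overlap in LD, so the count is near the background. The VHD libraries had 3552, 3243 and 1228 CPM at baseline and 2234, 1586 and 1489 CPM post-induction. VHD animals 1 and 2 were lower by 0.669 and 1.03 on the log2 scale, and VHD animal 3 was higher by 0.279. The responses were -0.24 ± 0.39 in LD (adjusted p = 0.974) and -0.60 ± 0.39 in VHD (adjusted p = 0.99994), and the mean response was 0.748-fold (0.497 to 1.13, adjusted p = 0.764). This interval of the mean response, with all libraries, leaves a fall to the lower bound possible. A rise of its mRNA above 1.13-fold lies outside it. The upper bounds were 1.51-fold in LD and 1.18-fold in VHD, and they move with the libraries used.

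Where the samples of CYP2E1 differed most was VHD baseline, from 1228 to 3552 CPM, a wider span than in any other group. Without VHD baseline 3 the mean response was -0.64 ± 0.24 (log2, adjusted p = 0.428) and the VHD response -0.97 ± 0.35 (adjusted p = 0.769), and without both libraries that stood apart the mean response was -0.56 ± 0.22 (adjusted p = 0.414) and the VHD response -0.87 ± 0.35 (adjusted p = 0.845). Without VHD baseline 1, the library with the highest CYP2E1, the values moved the other way, to -0.29 ± 0.28 in the mean response (adjusted p = 0.978) and -0.34 ± 0.42 in the VHD response (adjusted p = 0.9995). At baseline VHD stood at 1.19-fold of LD (0.666 to 2.11, adjusted p = 0.9998), and post-induction at 0.928-fold (0.521 to 1.65, adjusted p = 0.999). The hepatocyte marker share was 18.7% in VHD baseline 3, 16.8% in VHD baseline 2 and 30.3% in VHD baseline 1. A low share thus went with a low CYP2E1 level in 1 of these libraries and with a high level in another. In VHD post-induction 1, 2 and 3 the share was 24.9, 19.8 and 16.8%, the same order as CYP2E1. LD baseline also had the same order (26.0, 29.7 and 26.8%). In LD post-induction (29.8, 20.5 and 21.9%) library 1 was highest in both, and the other libraries were in opposite order. The part of the marker share in the CYP2E1 levels was not tested. In the mean response 2 of 11 hepatocyte markers were positive and 9 negative (median -0.10, none called), beside a median of 0.07 over all genes. At an unadjusted p under 0.05 (edgeR) there were 3 of the 11, and 1454 of all 18373 genes. The medians were -0.18 in the LD response (2 positive and 9 negative) and -0.03 in the VHD response (5 positive and 6 negative). The part of these markers in the enzyme responses was not tested either. In bulk tissue, fewer cells of a type and less RNA per cell cannot be told apart.

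**Figure D2:**
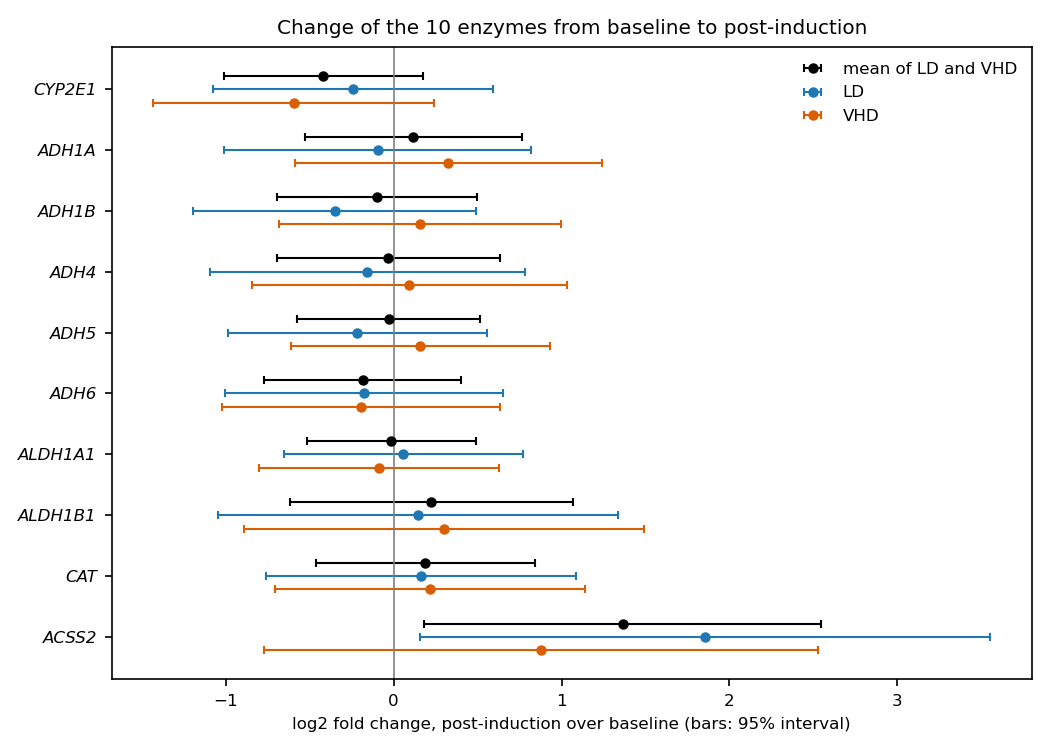
Log2 fold change from baseline to post-induction for each gene (horizontal axis), with 95% intervals, as the mean of both classes (black), in LD (blue) and in VHD (orange). All intervals include 0 except those of ACSS2 in LD and in the mean, whose adjusted p were 0.856 and 0.534.

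CAT, the catalase of peroxisomes, had 1880, 2527 and 1800 CPM in LD baseline and 2607, 2488 and 1846 CPM in LD post-induction. In VHD it had 2817, 1787 and 1146 CPM at baseline and 3473, 1271 and 1932 CPM post-induction. Both libraries of VHD animal 1 were above all others, and VHD baseline 3 and VHD post-induction 2 were the lowest. The mean response was 1.14-fold (0.724 to 1.79, adjusted p = 0.938), with 4 animals higher and 2 lower. By class, the log2 response of CAT was 0.16 ± 0.43 (LD) and 0.22 ± 0.43 (VHD, both with SE), and its class difference -0.11 ± 0.43 at baseline and -0.056 ± 0.43 post-induction.

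ALDH1A1, a cytosolic aldehyde dehydrogenase that also makes retinoic acid, had 1448, 1354 and 1675 CPM in LD baseline and 2055, 1507 and 1101 CPM in LD post-induction. VHD values were 1683, 1432 and 1152 CPM at baseline and 1448, 1091 and 1476 CPM post-induction. Its mean response was 0.990-fold with the narrowest interval of the 10 (0.698 to 1.40, adjusted p = 0.995). On the log2 scale, with SE, ALDH1A1 had a response of 0.058 ± 0.33 in LD and -0.088 ± 0.33 in VHD, and the classes differed by -0.07 ± 0.33 at baseline and -0.22 ± 0.33 post-induction.

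ALDH1B1, a mitochondrial aldehyde dehydrogenase, had 502, 534 and 404 CPM in LD baseline and 1030, 282 and 281 CPM in LD post-induction. The VHD libraries had 736, 203 and 364 CPM at baseline and 689, 559 and 355 CPM post-induction. LD post-induction 1 was at more than the sum of the other libraries of its group, and without it the LD response turned from 0.15 ± 0.55 to -0.77 (log2, adjusted p = 0.433) and the mean response from 0.22 ± 0.39 to -0.24 (adjusted p = 0.758). The mean response over all libraries was 1.17-fold (0.651 to 2.09, adjusted p = 0.9497). Its log2 responses (with SE) were 0.15 ± 0.55 for LD and 0.30 ± 0.55 for VHD, and VHD minus LD came to -0.14 ± 0.55 at baseline and 0.0076 ± 0.55 post-induction.

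ACSS2, the acetyl-CoA synthetase for acetate, had 6.58, 18.3 and 7.76 CPM in LD baseline and 92.8, 21.3 and 4.89 CPM in LD post-induction. In VHD it had 19.7, 11.02 and 36.6 CPM at baseline and 46.6, 34.4 and 42.6 CPM post-induction. All 3 VHD animals and LD animals 1 and 2 were higher afterwards, by 0.214 (LD animal 2) to 3.82 (LD animal 1) on the log2 scale, and LD animal 3 was lower by 0.667. The mean response was 2.58-fold (1.14 to 5.84, unadjusted p = 0.0267 and adjusted p = 0.534 in edgeR), the LD response 3.62-fold (1.11 to 11.7, adjusted p = 0.856) and the VHD response 1.83-fold (0.585 to 5.76, adjusted p = 0.99994). Its deepest library by this gene held 1751 counts and its shallowest 38.

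The size of the ACSS2 value rested on LD post-induction 1. Without it the mean response was 0.56 ± 0.42 on the log2 scale (adjusted p = 0.549) in place of 1.37 ± 0.55, and the LD response 0.25 ± 0.62 (adjusted p = 0.858) in place of 1.85 ± 0.79. Leaving out any of the other 11 libraries gave a mean response of 1.15 to 1.67. With a term for the animal the mean response was 1.00 ± 0.53 (adjusted p = 0.715), and on its leading transcript alone 0.73 ± 0.96. For the LD response the term for the animal gave 0.97 ± 0.80 (adjusted p = 0.863) and the leading transcript 1.30 ± 1.37, and both intervals then included 0. The VHD response was 0.16 ± 1.35 on the leading transcript, 0.48 ± 0.87 without VHD baseline 2 and 1.39 ± 0.90 without VHD baseline 3. At baseline VHD stood at 2.05-fold of LD (0.644 to 6.50, adjusted p = 0.9998), and post-induction at 1.04-fold (0.334 to 3.22, adjusted p = 0.999).

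**Figure D3:**
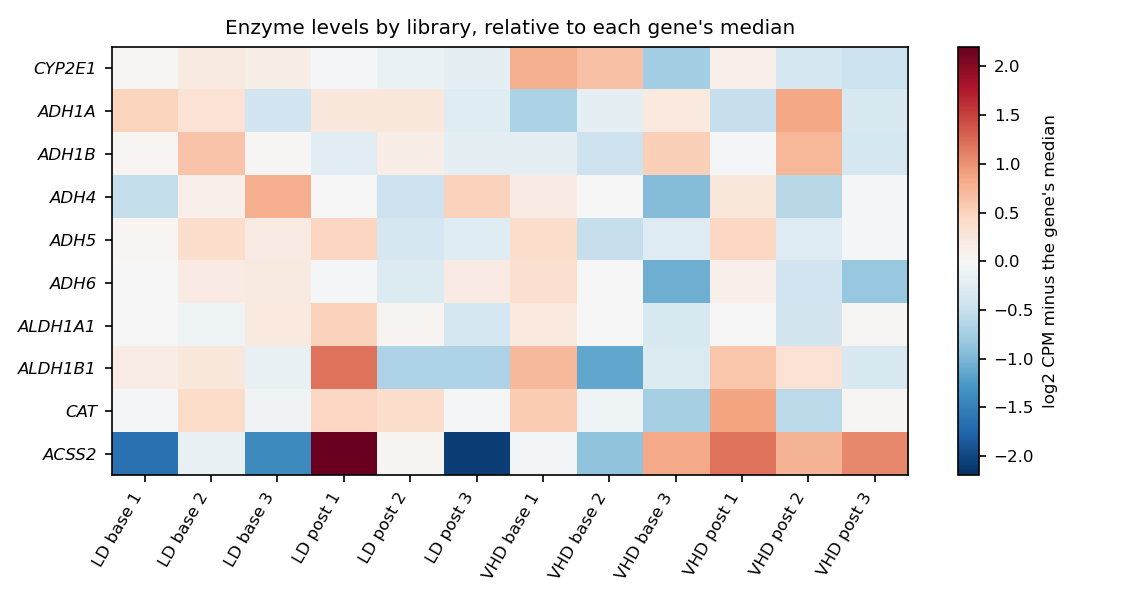
Log2 CPM of each gene (rows) in each library (columns) minus that gene's median over the 12 libraries, with red above and blue below the median. ACSS2 shows the widest colours, from LD post-induction 3 (4.89 CPM) to LD post-induction 1 (92.8 CPM), while ALDH1A1 stays near its median of 1448 CPM.

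Between the classes the 10 genes showed no called difference at either time. At baseline their log2 differences (VHD minus LD) ran from -0.41 for ADH4 to 1.03 for ACSS2, with 2 positive and 8 negative and a median of -0.19, beside 0.07 over all genes. In the same comparison 10 of 11 hepatocyte markers were negative (median -0.24), while 6 of 6 macrophage markers (median 0.54), 5 of 5 T and NK cell markers (0.63) and 5 of 5 neutrophil markers (1.23) were positive, none of them called. Of all genes, 10406 of 18373 were positive. Other leukocytes did not all follow, with B and plasma cell markers at 2 positive and 2 negative (-0.21). Red blood cell markers were 5 of 5 positive (0.17), and stellate cell and fibroblast markers 1 positive and 7 negative (-0.17). The part of these cell types in the values of the enzymes was not tested. Post-induction the differences of the 10 genes ran from -0.29 for ADH6 to 0.27 for ADH1B, with 5 positive and 5 negative and a median of -0.02, beside -0.01 over all genes. The responses of the classes differed by -0.98 ± 1.08 (ACSS2) to 0.51 ± 0.55 (ADH1B) on the log2 scale, with adjusted p of 0.99995 in edgeR for every member. Between these lay CYP2E1 (-0.36 ± 0.55), ALDH1A1 (-0.15 ± 0.47), ADH6 (-0.021 ± 0.54), CAT (0.054 ± 0.61), ALDH1B1 (0.15 ± 0.78), ADH4 (0.25 ± 0.62), ADH5 (0.37 ± 0.51) and ADH1A (0.42 ± 0.60), all with SE. By the labels, no gene moved one way in all 3 animals of a class and the opposite way in all 3 of the other. This pairs libraries by animal numbers that were not settled for VHD animals 2 and 3. With these numbers exchanged at 1 time point, ADH1B would be higher afterwards in all 3 VHD animals and lower in all 3 LD animals. Its VHD pairs would then be 2538 and 2861, 2140 and 2243, and 4220 and 4815 CPM. ACSS2 would be lower from VHD baseline 3 to VHD post-induction 2 (36.6 and 34.4 CPM). The comparisons between the classes share libraries with the responses above, so their values are not independent of them.

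How the 10 genes varied among themselves was described by the SD of the log2 ratio of a pair over the 12 libraries, where a small value means that the pair kept its ratio. The steadiest of the 45 pairs was CYP2E1 with ADH6 (0.273), whose ratio ran from 3.36 (LD post-induction 3) to 6.87 (VHD baseline 2). ADH5 with ALDH1A1 (0.291), ADH5 with CAT (0.342) and ADH1A with ADH1B (0.349) came next. ADH1A and ADH1B may share reads, and the part of this in their ratio was not tested. The pairs with ACSS2, the gene with the widest spread of its own, were the loosest by this measure. They ran from 1.08 with ALDH1B1 to 1.54 with ADH6, the latter with a 22.1-fold span of the ratio. The libraries share animals and scaling, so these are descriptions with no test.

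By the same measure, over all 10490 named genes with an average log2 CPM of at least 1, the genes most like CAT were CD302, a C-type lectin receptor, ACO1, the cytosolic aconitase that also binds iron-responsive RNA, and TDRD7, a Tudor domain protein (0.148, 0.152 and 0.155, where the median gene had 0.681). ALDH1A1 was closest to OPA1, which fuses mitochondrial inner membranes, FAF1 and JPT2 (0.149, 0.154 and 0.155). CYP2E1 was closest to GTF3C3, a subunit of transcription factor IIIC, NFX1 and SAR1B, a GTPase of vesicle export from the endoplasmic reticulum (0.194, 0.208 and 0.216). ADH4 was closest to ZSCAN29, SNRPN and the chaperonin subunit CCT4 (0.273, 0.274 and 0.294). ACSS2 had no gene as close by this measure, which depends on the spread of the member itself (SD 1.28 for ACSS2). Its nearest were DHCR7, IDI1 and NSDHL (0.527, 0.641 and 0.690, median gene 1.37), each an enzyme of cholesterol synthesis. By correlation ACSS2 was no looser, at 0.92 with DHCR7. CYP2E1 had 0.901 with GTF3C3 and CAT 0.948 with CD302.

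These 3 had low and high values in much the same libraries as ACSS2. DHCR7, the last reductase of the pathway, ran from 19.8 to 26.6 CPM in LD baseline, 19.5 to 108 CPM in LD post-induction, 27.7 to 96.6 CPM in VHD baseline and 69.3 to 110 CPM in VHD post-induction. IDI1, the isopentenyl diphosphate isomerase, and NSDHL, a sterol dehydrogenase, had their lowest value in LD post-induction 3 (6.42 and 34.0 CPM) and their highest in LD post-induction 1 (45.0 and 169 CPM), the same libraries as ACSS2. Their mean responses were 1.06 ± 0.41 for DHCR7, 0.72 ± 0.40 for IDI1 and 0.76 ± 0.36 for NSDHL (log2, adjusted p 0.504, 0.710 and 0.641), so they did not pass either. They were picked for likeness to ACSS2, and their values are no separate support for it.

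The transcript table divides 8 of the 10 genes between 2 or 3 Ensembl transcripts, and for CYP2E1, ADH1A, ADH1B, ADH4 and ACSS2 this division differed widely between libraries. For CYP2E1, 93.0% of counts over all libraries lay on ENSMMUT00000060042, which spans 129845335 to 129856824, and the rest on ENSMMUT00000008888 and ENSMMUT00000062674, which share the narrower span from 129845436 to 129856367. Their joint part was 27.3% in LD post-induction 1, 25.7% in VHD baseline 1, 7.58% in LD baseline 2, 5.69% in VHD post-induction 1, 4.77% in LD baseline 3 and 4.13% in LD baseline 1. It was under 1% in the other 6 libraries, 2 at baseline and 4 post-induction.

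ADH1A placed 95.7% of its counts on ENSMMUT00000026336 (97986980 to 98002356) and the rest on ENSMMUT00000041960, which lies inside it (97990639 to 97999448). The inner transcript took 53.4% in VHD baseline 1 and 33.7% in VHD post-induction 1, both libraries of VHD animal 1, then 9.22% in LD baseline 2 and 7.21% in LD post-induction 1. It took under 1% in the other 8. ADH1B had its second transcript, ENSMMUT00000026337 (98021747 to 98030586), at 28.3% in LD post-induction 1, 15.2% in LD baseline 1, 5.40% in VHD baseline 1, 2.37% in VHD baseline 2 and 1.95% in LD baseline 2, and under 1% elsewhere. ADH4 had its second, ENSMMUT00000015460 (97760887 to 97780842), at 25.2% in LD post-induction 1, 18.0% in VHD baseline 1 and 2.25% in LD baseline 2, and under 1% elsewhere. LD post-induction 1, LD baseline 2 and VHD baseline 1 were thus above 1% for all 4 of these genes.

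ACSS2 showed no leading transcript common to all libraries. ENSMMUT00000025205 (29205242 to 29255268) took from 5.01% in LD baseline 1 to 98.7% in LD post-induction 3, and ENSMMUT00000025206 (29205242 to 29255186) the remainder. In ADH6, ALDH1A1 and CAT the second transcript never exceeded 1.25%. The split of reads over nested transcripts is an estimate of the authors' software whose error is not in the table, and no difference in transcript use was tested. The gene sums do not depend on this split, while the values given for leading transcripts do.

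**Figure D4:**
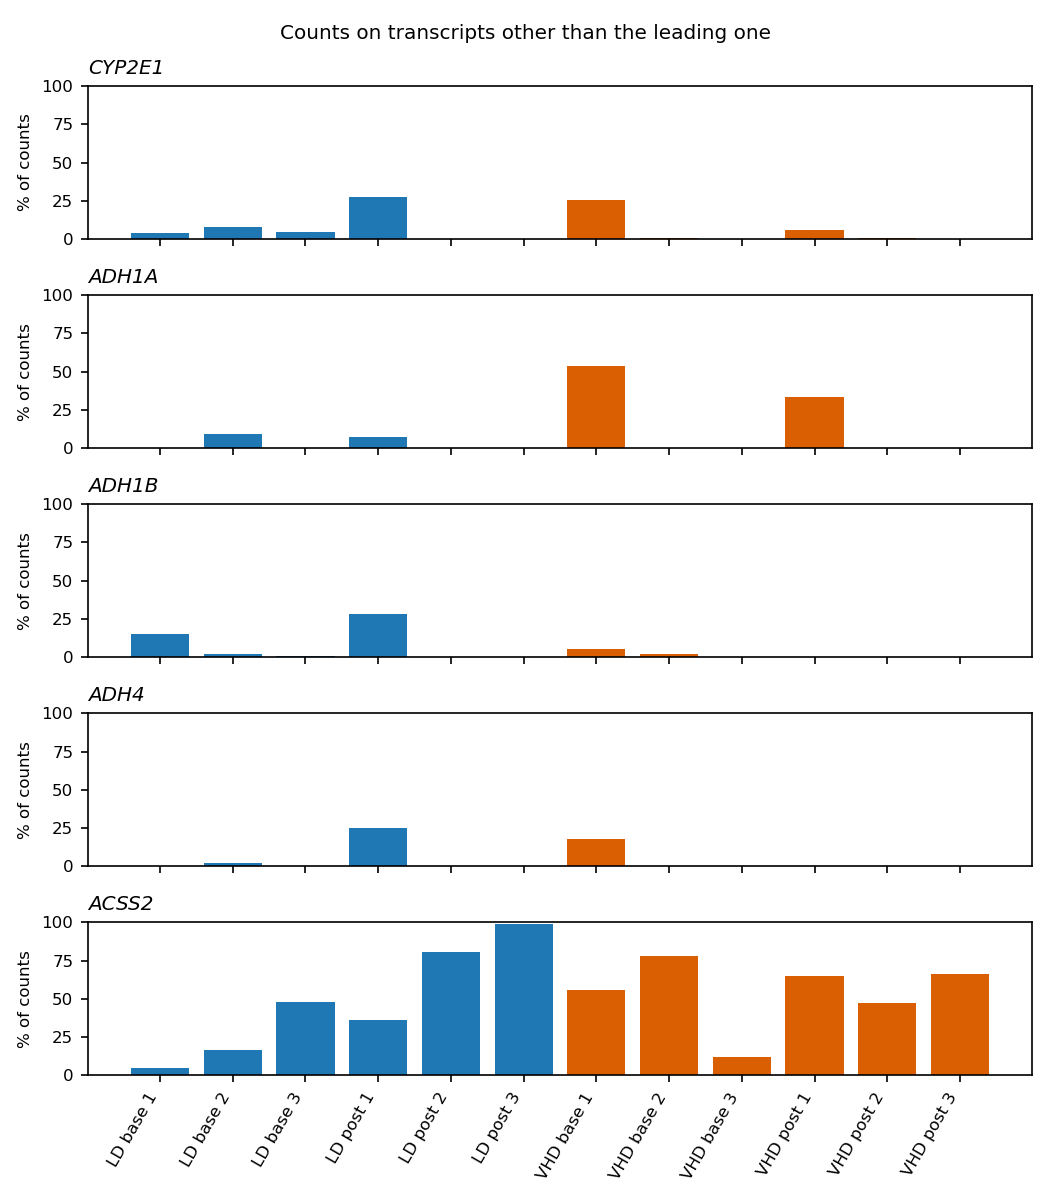
Percent of a gene's estimated counts on transcripts other than the one with the most counts over all libraries, for 5 genes in each library (LD blue, VHD orange). CYP2E1 and ADH4 peak in LD post-induction 1 and VHD baseline 1 (27.3% and 25.7% for CYP2E1), ADH1A in the libraries of VHD animal 1, and ACSS2 is divided in every library.

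Around the 10 enzymes, 158 gene names in 10 lists of neighbouring pathways were looked up, and 134 identifiers were tested. ALDH1B1, a member, is also in the periportal list and is included in these counts. None of the identifiers passed in any of the 6 comparisons, against 0.267% of all genes in the mean response. The other ADH and ALDH genes (16 tested) had a median mean response of 0.12, with 14 positive and 2 negative. ALDH3A2, which oxidises fatty aldehydes, had 0.14 ± 0.27 (log2, adjusted p = 0.957), ALDH7A1, an enzyme of lysine breakdown, 0.15 ± 0.35 (adjusted p = 0.969), ALDH5A1, which oxidises succinic semialdehyde, 0.37 ± 0.24 (adjusted p = 0.750), the mitochondrial acetate enzyme ACSS1 -0.76 ± 0.64 (adjusted p = 0.836) and ALDH3B1 0.36 ± 0.32 (adjusted p = 0.847). ACSS1 was near the floor, with group means of 0.33 to 1.14 CPM and a lowest value of 0 in LD baseline.

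In the microsomal list (7 tested, median 0.35, 4 positive and 3 negative), POR, which passes electrons from NADPH to CYP2E1 and other cytochromes, averaged 387 ± 118 CPM at LD baseline, 224 ± 64.7 in LD post-induction, 471 ± 179 at VHD baseline and 264 ± 122 in VHD post-induction (SD, n = 3). Its mean response was -0.81 ± 0.30 (adjusted p = 0.449). CYP1A2, another cytochrome that can oxidise ethanol, had 0.52 ± 0.36 (adjusted p = 0.776). Its group means were only 1.16 to 2.08 CPM, so its value rests on few reads. CYP4A11, a fatty acid hydroxylase, had 0.64 ± 0.30 (adjusted p = 0.633) and CYB5R3, a cytochrome b5 reductase, 0.60 ± 0.30 (adjusted p = 0.670). In the pericentral list (12 tested, median 0.33, 9 positive and 3 negative), of genes that like CYP2E1 are known from the hepatocytes around the central vein, the medians differed by class. The median was 0.65 in the LD response (10 positive and 2 negative) and -0.07 in the VHD response (5 positive and 7 negative), and -0.64 in the difference of the responses (1 positive and 11 negative). The last shares all its libraries with the other values, and none of the 12 genes was called in it. Over all genes these medians were 0.08, 0.03 and -0.05. In VHD minus LD the list had a median of 0.59 at baseline (10 positive and 2 negative) and -0.185 post-induction (4 positive and 8 negative). Over all genes the medians there were 0.07 and -0.01. CYP2E1 itself had a response of -0.24 in LD and -0.60 in VHD. In the difference of the responses the macrophage (-0.52), neutrophil (-0.70) and T and NK cell markers (-0.78) also had negative medians. The direction is thus not particular to this list. Only the hepatocyte (0.08) and B and plasma cell (0.89) marker lists had positive medians there. In the mean response GLUL, the glutamine synthetase, had 0.28 ± 0.52 (adjusted p = 0.954) RNF43, a brake on Wnt signalling, 1.06 ± 0.30 (adjusted p = 0.261), the glutamate carrier SLC1A2 -0.88 ± 0.44 (adjusted p = 0.669) and the dicarboxylate carrier SLC13A3 0.60 ± 0.33 (adjusted p = 0.709). The periportal list (12 tested) had a median of 0.08, with 7 positive and 5 negative, and PCK1, the enzyme at the start of glucose production, stood at 0.62 ± 0.53 (adjusted p = 0.835), HSD17B13, a lipid droplet protein, at 0.24 ± 0.20 (adjusted p = 0.826) and CDH1, E-cadherin, at -0.26 ± 0.23 (adjusted p = 0.845).

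Ethanol oxidation loads the liver with NADH, and the list of NADH shuttles and lactate (20 tested) had a median of 0.08, with 10 positive and 10 negative. Its values with the smallest p were those of the lactate carrier SLC16A1 (-0.88 ± 0.30, adjusted p = 0.378), the aspartate aminotransferase GOT1 (-1.07 ± 0.41, adjusted p = 0.504) and the lactate dehydrogenase LDHA (-0.71 ± 0.28, adjusted p = 0.516). The list of non-oxidative ethanol metabolism (7 tested) had a median of -0.05, with 2 positive and 5 negative, and the carboxylesterases CES1 and CES2 had -0.26 ± 0.25 (adjusted p = 0.863) and -0.24 ± 0.24 (adjusted p = 0.870). UGT1A1, which joins glucuronic acid to its substrates, had -0.47 ± 0.27 (adjusted p = 0.726).

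The hydrogen peroxide and radical defence list (14 tested) had a median of -0.15, with 4 positive and 10 negative. TXNRD1, the cytosolic thioredoxin reductase, averaged 88.5 ± 22.9 CPM at LD baseline, 33.3 ± 12.8 in LD post-induction, 74.1 ± 21.9 at VHD baseline and 32.9 ± 12.0 in VHD post-induction (SD, n = 3). Its mean response was -1.29 ± 0.28 (adjusted p = 0.101). GCLC, which starts glutathione synthesis, had -1.02 ± 0.24 (adjusted p = 0.140) and NQO1, a quinone reductase, -0.64 ± 0.24 (adjusted p = 0.479). The peroxisome list (17 tested) had a median of 0.03, with 9 positive and 8 negative, PEX5, the import receptor that carries peroxisomal enzymes, at 0.06 ± 0.34 (adjusted p = 0.986), and DAO, which makes hydrogen peroxide from D-amino acids, at 1.53 ± 0.41 (adjusted p = 0.224). The assembly factors PEX13 and PEX2 had -0.48 ± 0.27 (adjusted p = 0.718) and -0.38 ± 0.22 (adjusted p = 0.735).

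For the fate of acetyl-CoA, the list of its users and of SREBP targets (14 tested) had a median of 0.38, with 10 positive and 4 negative, beside 0.07 over all genes. ACACB, the acetyl-CoA carboxylase at mitochondria, averaged 16.2 ± 5.48 CPM at LD baseline, 33.4 ± 6.49 in LD post-induction, 14.8 ± 1.82 at VHD baseline and 32.9 ± 12.9 in VHD post-induction (SD, n = 3), with a mean response of 1.096 ± 0.26 (adjusted p = 0.133). FASN, the fatty acid synthase, had 1.29 ± 0.55 (adjusted p = 0.570) and ACACA, the cytosolic acetyl-CoA carboxylase, 0.73 ± 0.33 (adjusted p = 0.591). SREBF1, a regulator of lipid synthesis genes, had -0.02 ± 0.45 (adjusted p = 0.998) and ACLY, which makes acetyl-CoA from citrate, -0.41 ± 0.24 (adjusted p = 0.726). The liver transcription factors (17 tested) had a median of -0.15, with 7 positive and 10 negative. The smallest p among them were those of NFE2L2, which governs antioxidant genes (-1.03 ± 0.22, adjusted p = 0.0887), FOXA2 (-1.17 ± 0.33, adjusted p = 0.255) and FOXA3 (-0.94 ± 0.29, adjusted p = 0.304).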

How the data were processed

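Libraries of mRNA and miRNA were made from 500 ng total RNA (RIN above 8.5) with a NEXTFLEX Combo-Seq kit and read for 76 bases on a NovaSeq, per the labels' protocols. The authors deposited estimated counts per Ensembl transcript, of which 40.1% are whole numbers. The submitters' processing notes name the build Mmul_8.0.1 and the tools BWA, Bowtie and Partek. Roles of the tools and the annotation release: not given in the sources used here. The miRNA tables and the scaled transcript table were not used.

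The 40611 transcripts were summed into 23993 genes by identifier and rounded, and symbols came from a table that names 15471 of them. It gives CYP2E1 to 2 identifiers, 1 of which is in the transcript table. Low counts were removed with filterByExpr, which left 18373 genes. The tests used R 4.3.3 and edgeR 4.0.16 with TMM factors, 1 mean for each of the 4 groups, a robust quasi-likelihood fit to the 12 libraries, the F test and Benjamini-Hochberg adjustment over all genes, with a threshold of 0.05. CPM use library totals scaled by the TMM factors. The standard error is the log2 fold change divided by the square root of F, and 95% intervals use its residual degrees of freedom (13.4). Libraries are separate biopsies, and those of 1 animal were treated as independent. The numbers in the titles mark the animal, so they pair the 2 biopsies of each animal. Deviations of these pairs correlated by 0.0748, -0.0162 and 0.351 in LD and by 0.406, -0.354 and 0.104 in VHD. Alternatives were a replicate block, DESeq2 1.42.0, RLE factors, other filters, transcripts, and leaving out libraries. In the responses the replicate block was a term for the animal. In VHD minus LD at baseline and post-induction it was a term for the replicate number. That number pairs an LD animal with a different VHD animal, so the pairing there is arbitrary.

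All 10 members are named. Of each neighbouring list the genes past the threshold were to be named, otherwise up to 3 with the smallest p in the mean response, besides a fixed panel. The members and lists were chosen with earlier results of these data known, so no p adjusted over a list is given. INSIG1, SOD2 and ALDH2 of the lists are not analysed here.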

Additional observations from a re-analysis of the deposited data

How the results depend on the processing

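None of the 10 genes was called in any comparison under any of the 19 alternatives. For CYP2E1, ADH6 and ACSS2 the sign of the mean response was kept in 19 of 19, and the smallest adjusted p of ACSS2 was 0.244 (DESeq2). The numbers of genes called among all genes moved more. In the mean response 49 were called (3 higher and 46 lower), against 266 with DESeq2 (71 higher and 195 lower), 4 with the replicate block, 0 with transcripts in place of genes and 32 when VHD baseline 3 and VHD post-induction 2 were left out. DESeq2 called 50 genes in the LD response, 54 in the VHD response, 1 in the difference of the responses and 1 in VHD minus LD post-induction, where the edgeR test called 0. Without a filter on low counts VHD minus LD post-induction gave 1, and without those libraries the VHD response gave 1. VHD minus LD at baseline, with 1 call, gave 0 with the filter at 1 CPM, with transcripts and when those libraries were left out. Leaving out 1 library at a time gave 0 to 71 calls in the mean response and 0 to 1 in VHD minus LD at baseline, VHD minus LD post-induction and the VHD response. The lowest counts were 0 without LD post-induction 2 or VHD post-induction 1, 1 without LD baseline 3 or VHD baseline 1, 2 without VHD post-induction 3, 4 without LD post-induction 3, 12 without LD baseline 2 and 31 without VHD baseline 2. The cause of these shifts was not tested. The log2 values of the enzymes whose sign turned were as follows. In VHD minus LD post-induction ALDH1B1 had -0.0199 with DESeq2, -0.0199 with RLE factors and -0.00988 without a filter. With the replicate block ADH1A had -0.011 in VHD minus LD post-induction, ALDH1B1 -0.15 in the LD response, ADH6 0.052 and ACSS2 0.068 in the difference of the responses and ADH4 0.0073 in the mean response, and the block changed no call of the 10. With transcripts in place of genes ACSS2 had -0.35 in VHD minus LD post-induction and ALDH1A1 0.0011 in the mean response, and the median of all genes was 0.109 at baseline and 0.116 in the LD response. Without VHD baseline 3 and VHD post-induction 2, VHD minus LD at baseline was 0.047 for ADH6, 0.061 for ALDH1A1 and 0.15 for CAT. Without them VHD minus LD post-induction was -0.50 for ADH1A, -0.10 for ADH1B, 0.050 for ADH4, -0.027 for ALDH1B1 and 0.23 for CAT, and the mean response of ADH1A -0.041. Leaving out 1 library at a time turned the sign of 38 values, all with adjusted p above the threshold. Their log2 values then ran over these ranges. For VHD minus LD at baseline CAT -0.50 to 0.11, ALDH1A1 -0.21 to 0.021, CYP2E1 -0.015 to 0.54 and ALDH1B1 -0.76 to 0.19. For VHD minus LD post-induction ALDH1B1 -0.30 to 0.92, ACSS2 -0.48 to 1.65, ALDH1A1 -0.42 to 0.035, CAT -0.53 to 0.22, ADH5 -0.15 to 0.40, ADH1A -0.50 to 0.30, ADH4 -0.37 to 0.12 and ADH1B -0.10 to 0.51. For the LD response ALDH1A1 -0.20 to 0.25, ADH4 -0.50 to 0.24, ALDH1B1 -0.77 to 0.45 and ADH1A -0.32 to 0.052. For the VHD response ADH6 -0.53 to 0.12, ALDH1A1 -0.25 to 0.049, ADH1B -0.22 to 0.49, ADH5 -0.092 to 0.47, ALDH1B1 -0.11 to 0.91, ADH4 -0.21 to 0.31, CAT -0.26 to 0.60 and ADH1A -0.23 to 0.58. For the difference of the responses ADH6 -0.31 to 0.30, CAT -0.42 to 0.44, ADH4 -0.15 to 0.56, ALDH1A1 -0.35 to 0.11, ACSS2 -1.59 to 0.62, ALDH1B1 -0.22 to 1.06 and ADH1A -0.14 to 0.74. For the mean response ADH1B -0.29 to 0.028, ADH5 -0.19 to 0.13, ADH4 -0.23 to 0.17, ALDH1A1 -0.15 to 0.081, ALDH1B1 -0.24 to 0.53, CAT -0.052 to 0.38 and ADH1A -0.17 to 0.23. ACSS2 had as few as 38 counts in a library, and the other 9 genes at least 1828, so counting error limits ACSS2 most. The error of the division of reads between transcripts or between genes, ADH1A and ADH1B among them, is not given in the sources used here.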
